A study of Homo sapiens with 6 samples.

Results

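The ERBB family of receptor tyrosine kinases and the growth factors that bind them were examined in H661, cells of an established line from a human large cell carcinoma of the lung. The set was named by gene: the receptors EGFR, ERBB2, ERBB3 and ERBB4 and the ligands HBEGF, TGFA, AREG, EREG, BTC and EGF. Of these 10 genes, 9 were measured by a probe set (the group of probes on the array that reports a transcript) with exactly 1 gene symbol, out of 18404 genes measured in this way. AREG was not analysed here. Each of the 9 was represented by 1 probe set, so no choice between probe sets had to be made.

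In the study, gene expression was profiled on 6 Affymetrix arrays to ask how loss of SALL4, a zinc finger transcription factor of embryonic stem cells, acts on lung cancer cells. The control group (Scr-sh, n = 3) carried a scrambled short hairpin RNA and the knockdown group (SALL4-sh, n = 3) a short hairpin RNA against SALL4. Both groups were H661 cells that had been transduced with lentivirus, and each was made with a single hairpin, so an effect of the hairpin itself and loss of SALL4 cannot be told apart. The methods speak of independent experiments in general, but the sources used here do not say whether each array had a culture of its own, nor how long after transduction the RNA was taken. The p-values therefore reflect only the spread of these arrays, which may be technical.

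ERBB receptors sit in the cell membrane and act in pairs. A bound ligand brings receptors together, their kinase domains phosphorylate the receptor tails, and adaptor proteins then pass the signal to the RAS and ERK kinases and to AKT. ERBB2 has no known ligand of its own and ERBB3 has a very weak kinase, so both signal mainly in mixed pairs, whereas EGFR and ERBB4 bind ligands and signal alone as well. The ligands are made as membrane proteins and are released by metalloproteinases of the ADAM family. EGFR is a drug target in lung adenocarcinoma.

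The normalized intensity of SALL4 was 126, 104 and 130.2 on the 3 Scr-sh arrays and 33.6, 31.9 and 26.5 on the 3 SALL4-sh arrays, which checks the labels. Intensities are linear, and the deposited table holds no value under 8, which is a floor. This floor held 38.8% to 40.4% of the values of each array. A gene at the floor may be silent or weakly expressed, and its differences cannot be seen. In a sample of many cells, fewer cells that express a gene and less RNA per cell cannot be told apart. Groups were compared on the log2 scale with limma, a linear model that moves the variance of each gene toward a value shared across genes. The p-values were adjusted over all 18404 genes with the Benjamini-Hochberg method. An adjusted p under 0.05 was reached by 1.18% of all genes in the higher direction and by 1.33% in the lower one.

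HBEGF, a ligand of EGFR and ERBB4, was the only one of the 9 genes that passed this threshold, and it was lower in SALL4-sh. EGFR also had every SALL4-sh value below every Scr-sh value but did not pass. ERBB2, ERBB4 and EGF were measured above the floor on all 6 arrays with overlapping groups. ERBB3 and EREG lay at or close to the floor, and TGFA and BTC stood at the floor on all 6 arrays. No member passed the limma test in the higher direction. Taken without adjustment at 0.05, 0 members were higher and 2 lower, where 9.55% and 7.87% of all genes were.

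The promoters of HBEGF and EGFR, the pair of genes whose groups were apart, are shown for reference. They cover the 250 bases before the annotated start of the gene, read 5′ to 3′ on the strand of the gene, from RefSeq on GRCh38.p14. HBEGF lies at chr5:140346604-140346853 on the minus strand and EGFR at chr7:55018767-55019016 on the plus strand. Capitals mark the letters GGGCGG or their reverse complement CCGCCC, the core of the GC box that SP1 and related factors can bind.
HBEGF: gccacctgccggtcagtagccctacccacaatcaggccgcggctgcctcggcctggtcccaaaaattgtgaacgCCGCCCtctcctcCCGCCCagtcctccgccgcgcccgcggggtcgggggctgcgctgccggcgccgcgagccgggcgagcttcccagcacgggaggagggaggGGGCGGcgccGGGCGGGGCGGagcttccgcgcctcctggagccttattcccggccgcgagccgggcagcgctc
EGFR: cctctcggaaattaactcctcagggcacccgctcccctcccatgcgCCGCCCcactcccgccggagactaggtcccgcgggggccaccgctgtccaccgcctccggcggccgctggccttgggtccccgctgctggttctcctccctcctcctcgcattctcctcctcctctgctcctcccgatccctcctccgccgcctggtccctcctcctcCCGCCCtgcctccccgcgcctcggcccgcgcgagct
The HBEGF window held 5 such matches, of which the last pair overlaps in 1 base, and the EGFR window held 2. At least 1 match was present in 42.6% of 35116 promoter windows of the same length. Neither window held TATAAA on either strand, and 10.72% of all windows did. G and C made up 76.4% of the HBEGF window and 73.6% of the EGFR window, against a median of 58.0% over all windows. Of the other members with an entry, ERBB4 had 1 match, the upstream of the 2 starts of TGFA had 3, AREG had 1, and ERBB2, EREG, BTC and EGF had 0. The other listed start of EGFR lies inside the gene and had 0. G and C made up 75.6% of the upstream TGFA window and 48.8% to 65.6% of the other members' remaining windows. The inner EGFR window had 38.8%. TATAAA occurred in the windows of AREG and EREG and in the inner EGFR window. A match describes the letters in the window, and binding was not measured.

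**Figure D1:**
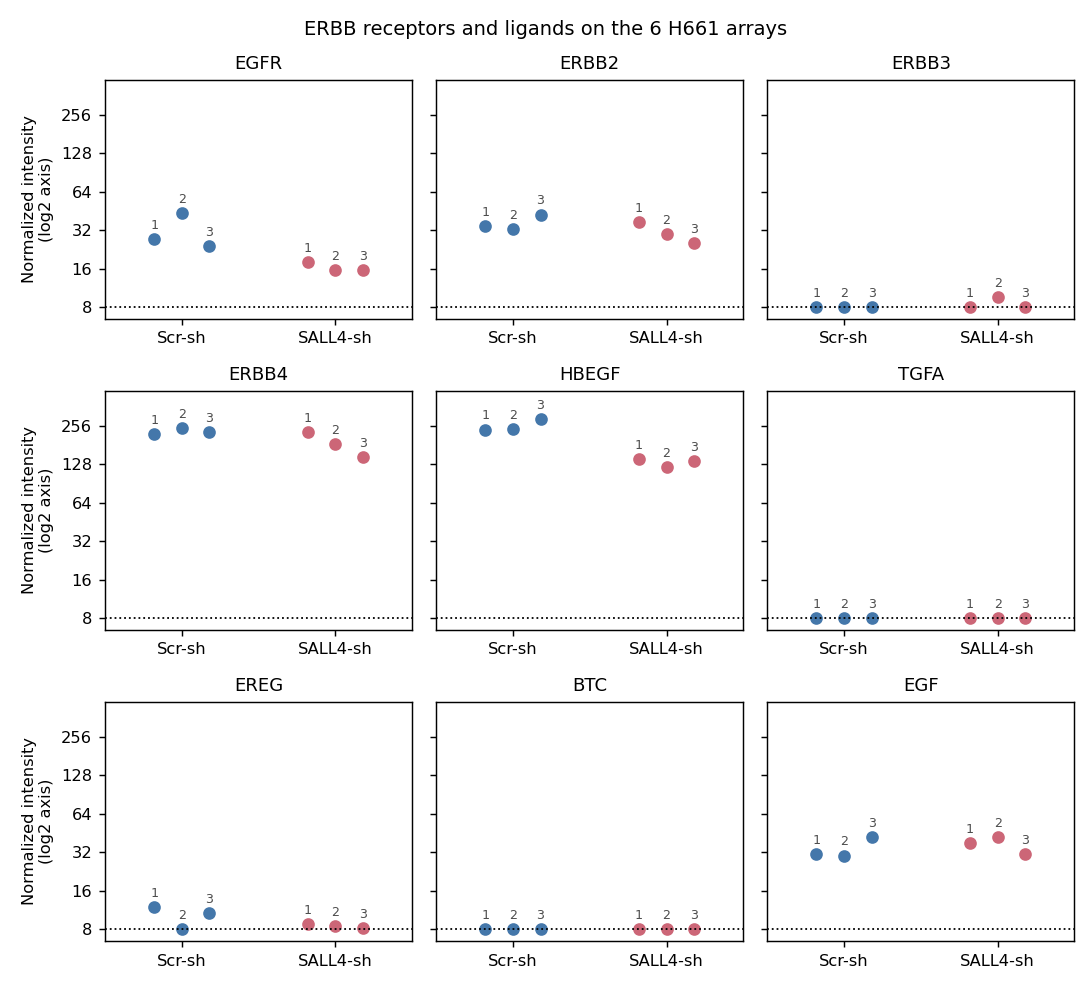
Normalized intensity (log2 axis) of each of the 9 measured genes on the 3 Scr-sh and 3 SALL4-sh arrays, with the replicate number above each point and the floor of 8 as a dotted line. The HBEGF and EGFR points of SALL4-sh lie below those of Scr-sh, ERBB4 falls below them on 2 of 3 arrays, and TGFA and BTC stand on the floor throughout.

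Among the ligands, HBEGF encodes heparin-binding EGF-like growth factor, which is released from the cell surface and is also the receptor of diphtheria toxin. Its intensity was 239, 243 and 290.1 in Scr-sh and 140.2, 121 and 135 in SALL4-sh. The lowest Scr-sh value was thus well above the highest SALL4-sh value, and the 3 SALL4-sh values lay close together. The means were 258 ± 28.3 (SD, n = 3) and 132 ± 9.65 (SD, n = 3), so that the ratio of SALL4-sh to Scr-sh was 0.514, with limma's 95% interval at 0.425 to 0.622. The log2 fold change was -0.96 (limma, standard error 0.10, adjusted p = 0.0336). The exact two-sided permutation test of these 6 values gave p = 0.1, and no smaller value is possible with groups of 3. With any 1 of the 6 arrays left out, HBEGF kept its direction at log2 fold changes of -1.01 to -0.87, and its adjusted p from limma was 0.0662 to 0.122. It did not pass either when tested by one-way analysis of variance, the method named in the paper (0.0661 after adjustment over all genes), or with the trend and robust options of limma (adjusted p = 0.0680).

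The other ligands gave no call. EGF, the founding ligand of the family, had intensities of 31.1, 30.2 and 42.2 in Scr-sh and 38.0, 42.3 and 30.9 in SALL4-sh. The groups covered nearly the same range and overlapped throughout. Its SALL4-sh level was 1.08 of the Scr-sh level, with a 95% confidence interval of 0.754 to 1.54 from limma, so that neither a moderate fall nor a moderate rise lay outside the interval. EREG, which encodes epiregulin, a ligand of EGFR and ERBB4, had 12.0, 8 and 10.7 in Scr-sh and 8.75, 8.45 and 8.17 in SALL4-sh. The SALL4-sh values lay just above the floor, and Scr-sh replicate 2 stood on it, below all of SALL4-sh. The log2 fold change of EREG was -0.26 (limma, adjusted p = 0.588). It rested on single arrays, at -0.43 without Scr-sh replicate 2 (limma, adjusted p = 0.0863) and -0.13 without Scr-sh replicate 1 (limma, adjusted p = 0.900). TGFA, which encodes transforming growth factor alpha, and BTC, which encodes betacellulin, were listed at 8 on all 6 arrays, as were 21.2% of all genes.

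Of the receptors, EGFR had intensities of 27.4, 43.3 and 24.0 in Scr-sh and 18.0, 15.7 and 15.5 in SALL4-sh. The SALL4-sh values differed by less than 3 units, whereas Scr-sh replicate 2 stood far above the other Scr-sh arrays. The log2 fold change was -0.90 (limma, standard error 0.25, adjusted p = 0.182), with a 95% confidence interval of -1.58 to -0.22 before adjustment over genes. With that array left out the log2 fold change was -0.65 with a standard error of 0.11 (limma, adjusted p = 0.0937). With any of the other 5 arrays left out, the adjusted p was 0.222 to 0.399. The paper reports little effect of the knockdown on EGFR RNA in H661, shown by quantitative PCR that it presents as matching its arrays. On those same arrays EGFR was lower here, without passing when all genes were tested. The paper also reports EGFR signaling as affected, from a pathway analysis of its arrays, and lower EGFR protein in other lung cancer lines. Protein was not measured here. Among the genes not at the floor throughout, 12.5% were apart in the same direction as HBEGF and EGFR, and 15.0% in the opposite one. Here 2 of the 7 members of that kind were apart, both lower.

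The call on EGFR turned on how dim genes were treated. When the dimmest genes, up to the 25th percentile of mean intensity, were removed before the fit, 6 of the 9 members stayed in the test. EGFR then passed with an adjusted p of 0.0345 from limma and HBEGF with 0.00682, and 5.47% of the 13840 genes then tested were called lower. When only genes listed at 8 on all 6 arrays were left out, an alternative chosen after seeing the data, EGFR had an adjusted p of 0.0674 from limma and 4.20% of 14511 genes were called lower. The fold change of EGFR was the same in all 3 fits. The prior degrees of freedom of limma, which set how far variances are shared across genes, were 0.422 with all genes, 2.35 without the floored genes and 5.22 with the percentile filter. Their part in the call on EGFR was not tested.

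**Figure D2:**
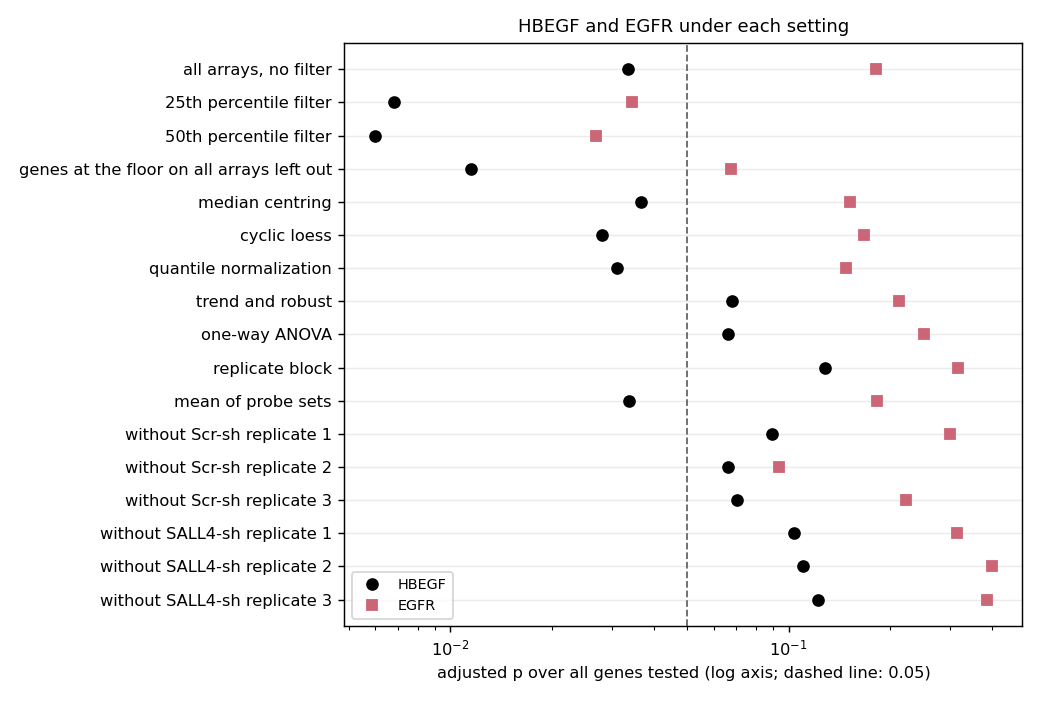
Adjusted p of HBEGF (circles) and EGFR (squares) over all genes tested under each processing setting (log axis), with the threshold of 0.05 as a dashed line. HBEGF lies left of the line with all arrays and no filter (0.0336), with genes filtered, with other normalizations and with the mean of probe sets. It lies right of the line with trend and robust variances (0.0680), one-way analysis of variance (0.0661), the replicate block (0.129) and each array left out (0.0662 to 0.122). EGFR lies left of the line only with the percentile filters (0.0345 and 0.0269). Its mean intensity in SALL4-sh (16.4) lay below the cut of the 50th percentile filter (4.081 on the log2 scale). EGFR stayed in that test only through its Scr-sh values.

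ERBB4, a receptor of the neuregulins and of HBEGF, had intensities of 219.7, 244 and 230.0 in Scr-sh and 227, 184 and 145 in SALL4-sh. The 3 Scr-sh arrays were close to each other, SALL4-sh replicate 1 lay within their range, and the other SALL4-sh arrays lay below it. The ratio of SALL4-sh to Scr-sh was 0.790, with an interval of 0.564 to 1.11 (limma, adjusted p = 0.473). The log2 fold change was -0.50 without SALL4-sh replicate 1 and -0.18 without SALL4-sh replicate 3, so that the size of this difference rested on single arrays.

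ERBB2, the receptor that pairs with the other family members, had 34.2, 32.5 and 42.3 in Scr-sh and 37.0, 30.0 and 25.4 in SALL4-sh. The groups overlapped, with SALL4-sh replicate 1 above 2 of the 3 Scr-sh arrays. The ratio was 0.842 with a 95% confidence interval of 0.597 to 1.19 (limma, adjusted p = 0.669). ERBB3, which couples strongly to phosphoinositide 3-kinase, stood at the floor on 2 Scr-sh arrays and at 8.01 on the third, and at the floor on 2 SALL4-sh arrays and at 9.60 on SALL4-sh replicate 2. That array alone gave it a log2 fold change of 0.09.

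**Figure D3:**
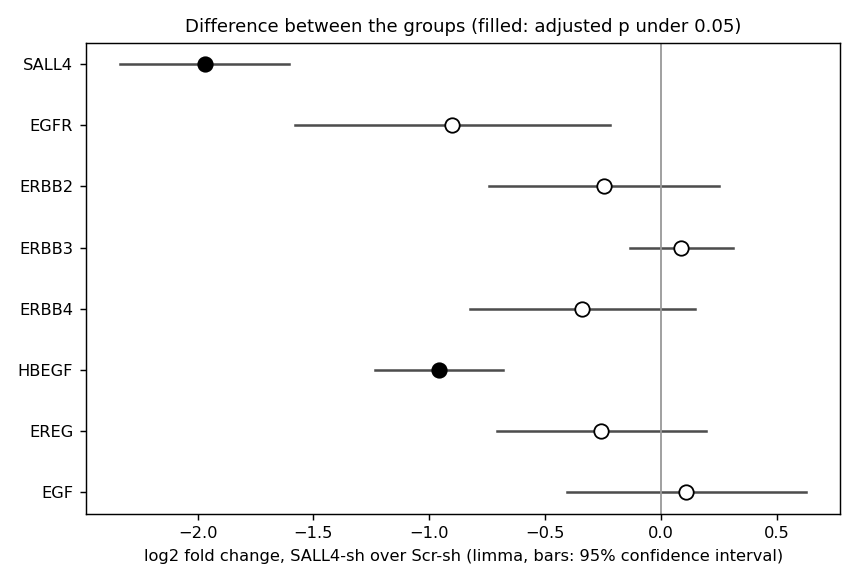
Log2 fold change of SALL4-sh over Scr-sh for SALL4 and the 7 members not at the floor throughout, with 95% confidence intervals from limma as bars (n = 3 arrays per group). Filled points, SALL4 at -1.97 and HBEGF at -0.96, passed an adjusted p of 0.05, the interval of EGFR ends below 0 at -0.22, and the intervals of ERBB2, ERBB3, ERBB4, EREG and EGF cross 0.

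The remaining ligands of the family were read from a list of 5 genes, EPGN and NRG1 to NRG4, of which none passed the limma test in either direction, also without adjustment. The neuregulins bind ERBB3 and ERBB4. NRG1 had intensities of 88.6, 152 and 98.7 in Scr-sh and 107, 93.1 and 118 in SALL4-sh. Scr-sh replicate 2 was the highest array here as it was for EGFR, and the groups overlapped. The second probe set of NRG1 gave a log2 fold change of 0.29 (standard error 0.40) against -0.06 (standard error 0.25) for the brighter one, so the probe sets differed in sign within their errors. NRG2 differed by 0.10 on the log2 scale (limma, adjusted p = 0.835) and NRG3, near the floor, by -0.22 (limma, adjusted p = 0.619). EPGN, which encodes epigen, and NRG4 stood at the floor on all 6 arrays.

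Ligand release was covered by 14 genes of ADAM metalloproteinases, their partners and proteins that bind membrane-bound HBEGF. None was called in either direction. Without adjustment, 2 were higher and 0 lower, beside 9.55% and 7.87% of all genes. NRDC encodes nardilysin, which binds HBEGF and aids its release. It had 219, 257 and 267 in Scr-sh and 420.3, 354 and 333 in SALL4-sh, so that all SALL4-sh values lay above all Scr-sh values (log2 fold change 0.57, limma, adjusted p = 0.122). ADAM17, the main enzyme that releases HBEGF, TGFA and AREG, had 109, 127 and 92.6 in Scr-sh and 142, 141 and 167 in SALL4-sh. Its groups were apart as well (log2 fold change 0.46, limma, adjusted p = 0.220). Of the 12 genes of this list not at the floor throughout, 3 were apart with SALL4-sh higher and 1 with SALL4-sh lower. Among all such genes, 15.0% and 12.5% were. Neither passed with the 25th percentile filter (adjusted p = 0.0611 and 0.136 from limma).

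Proteins that restrain the receptors were represented by 14 measured genes, of which none passed in either direction. With the 25th percentile filter 2 were higher, CBL, a ubiquitin ligase that marks active EGFR for degradation, and SOCS5, which promotes loss of EGFR protein, and none was lower, against 5.85% of all genes then tested called higher. Their log2 fold changes were 1.04 and 0.68. Other members had values in the opposite direction. LRIG3, a membrane protein that can lower receptor levels, had 28.3, 70.2 and 30.5 in Scr-sh and 23.7, 19.5 and 18.1 in SALL4-sh, and PTPN1, a tyrosine phosphatase that acts on EGFR, had 65.1, 58.7 and 98.5 against 54.4, 55.9 and 40.6. The groups of both were apart with SALL4-sh below (log2 fold changes -0.95 and -0.54, limma, adjusted p = 0.362 and 0.420). Of the 14, 4 were apart with SALL4-sh higher and 3 with SALL4-sh lower. Among all genes not at the floor throughout, 15.0% and 12.5% were. CBLB, a ubiquitin ligase related to CBL, had 49.5, 38.9 and 49.8 in Scr-sh and 35.2, 47.4 and 38.4 in SALL4-sh, and its groups overlapped (log2 fold change -0.19, limma, adjusted p = 0.734). The paper reports CBLB as raised by the knockdown, from its arrays and by quantitative PCR. On those same arrays the estimate here was negative, with limma's confidence interval at -0.63 to 0.25, so a small rise lay inside it. The paper also reports higher CBL-B protein after the knockdown in these cells and other lung cancer lines. It further reports lower CBL-B on SALL4 overexpression in a normal lung line, and SALL4 binding at the CBLB promoter. Protein and binding were not measured here. The median log2 fold change of the 14 was -0.14, against 0 over all genes. Without adjustment and without the filter, 3 of the 14 were higher and 0 lower, where 9.55% and 7.87% of all genes were.

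Among the 14 measured signal transducers, SOS2, an exchange factor that activates RAS, was higher and none was lower, beside 1.18% and 1.33% of all genes. SOS2 had 84.7, 109 and 97.9 in Scr-sh and 189, 172 and 176 in SALL4-sh. All 3 SALL4-sh values lay far above all Scr-sh values, with a log2 fold change of 0.89 (limma, adjusted p = 0.0403). It kept its call without Scr-sh replicate 2, and without any 1 of the other 5 arrays its adjusted p was 0.0686 to 0.141. GRB2, the adaptor that carries SOS proteins to phosphorylated receptors, had 226, 121 and 173 in Scr-sh and 80.3, 55.1 and 66.3 in SALL4-sh. Its groups were apart in the other direction, although the Scr-sh arrays differed widely among themselves (log2 fold change -1.34, limma, adjusted p = 0.115). GAB2, a docking protein that binds GRB2, differed by -1.17 on the log2 scale (limma, adjusted p = 0.0988), and MAP2K1, which encodes the ERK kinase MEK1, by 0.78 (limma, adjusted p = 0.119). With the 25th percentile filter GRB2 and GAB2 were called lower and SOS2 and MAP2K1 higher, where 5.47% and 5.85% of all genes then tested were called lower and higher. Without adjustment and without the filter, 5 of the 14 were higher and 3 lower, beside 9.55% and 7.87% of all genes. The groups of 5 were apart with SALL4-sh higher and those of 3 with SALL4-sh lower, beside 15.0% and 12.5% of genes not at the floor throughout.

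Of 16 genes that respond to ERK signaling, none passed in either direction, and 4 were higher and 1 lower without adjustment, beside 9.55% and 7.87% of all genes. With the 25th percentile filter, DUSP6, a phosphatase that inactivates ERK, and SPRED1 were higher and SPRED2 was lower, beside 5.85% and 5.47% of all genes then tested. SPRED1 and SPRED2 both inhibit RAS signaling. Their log2 fold changes were 0.97, 0.98 and -0.99. EGR1 and FOS, immediate-early genes of the same pathway, overlapped between the groups, with log2 fold changes of 0.11 and -0.64. FOS stood at the floor on 2 of 3 SALL4-sh arrays, which limits its value (limma, adjusted p = 0.534). The median log2 fold change was 0.02 over the 58 genes of the 5 lists that were not at the floor throughout, 0.01 over all 14511 such genes and -0.26 over the 7 such ERBB receptors and ligands. Over all 9 measured ERBB receptors and ligands it was -0.25, and over all 18404 genes it was 0.

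**Figure D4:**
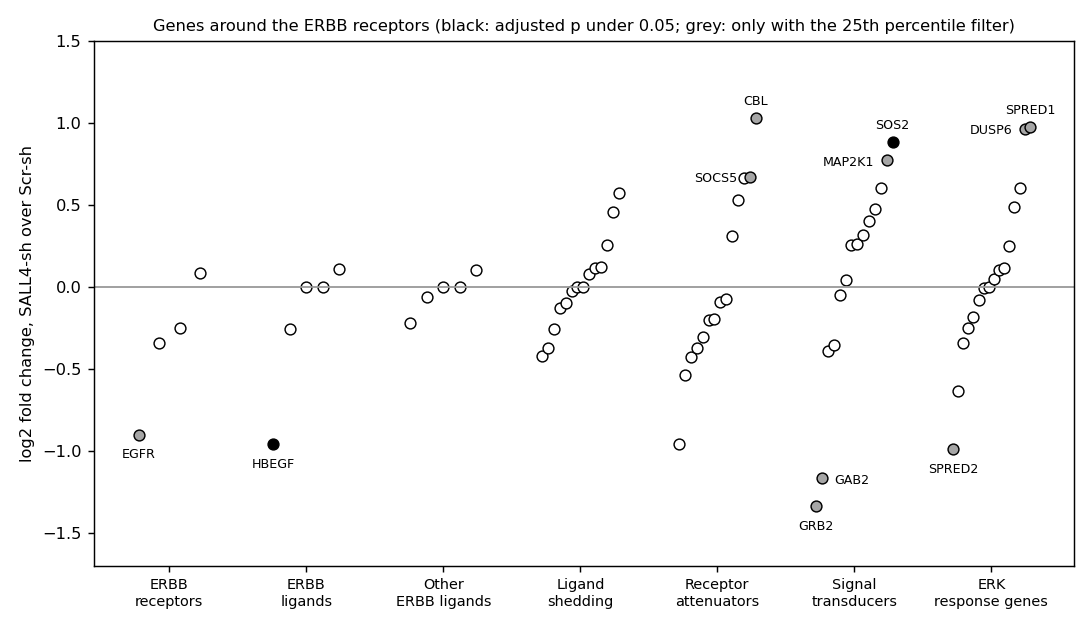
Log2 fold change of SALL4-sh over Scr-sh for each measured gene of the receptors, the ligands and the 5 lists around them, ordered within a list. Black points, HBEGF and SOS2, passed an adjusted p of 0.05 from limma, and grey points passed only with the 25th percentile filter. Those called lie on both sides of 0 in the lists of signal transducers and ERK response genes.

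The cell type was checked with markers. EPCAM, an adhesion protein of epithelial cells, lay at 589.8 to 898 in Scr-sh and 843 to 1113 in SALL4-sh on the brighter of its probe sets (log2 fold change 0.43, and -0.09 on the other), and the summed intensity of the 6 epithelial markers was 680.1 to 1014 and 924 to 1205. EPCAM carried most of this sum. KRT18 came next, at 41.5 to 76.7 in Scr-sh and 28.8 to 57.0 in SALL4-sh on its brighter probe set. KRT7, KRT8, KRT19 and CDH1 lay at or near the floor, at no more than 17.3 on any array. These levels were below those of COL1A1 and COL3A1, given further on. KRT18 differed by -0.44 on the log2 scale on its brighter probe set, where the groups overlapped, and by -0.98 on the other, where SALL4-sh lay below Scr-sh on all arrays, and KRT19 differed by -0.11. CDH1, which encodes E-cadherin, was higher in SALL4-sh (log2 fold change 0.91, limma, adjusted p = 0.0456), a value limited by 1 Scr-sh array at the floor. Of 6 measured leukocyte markers, 3 stood at the floor on all 6 arrays, among them PTPRC and CD3E. The summed intensity of the 6 was 76.0 to 112 in Scr-sh and 72.6 to 76.2 in SALL4-sh, where CD68 carried most of the excess over the 48 that the floor alone gives, and ITGAM did not exceed 8.72. Of 7 fibroblast and endothelial markers, PECAM1, VWF, CDH5 and DCN stood at the floor on all 6 arrays. The sum of the 7 was 170.3 to 184 in Scr-sh and 163 to 191 in SALL4-sh. COL1A1, which encodes a chain of type I collagen, was lower in SALL4-sh (log2 fold change -0.48, limma, adjusted p = 0.0387) and did not pass with the 25th percentile filter (0.0725). COL3A1, the brightest gene of this list, differed by 0.24 on the log2 scale with overlapping groups.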

How the data were processed

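For each of 3 Scr-sh and 3 SALL4-sh samples, 5 µg of total RNA was labelled and hybridised to an Affymetrix array. The deposited file holds the authors' normalized intensity of 32321 probe sets, linear and floored at 8. The processing notes of the submitters name RMA (background correction, normalization between arrays and summary of probes per probe set), without a version. Precision is limited by the number of arrays.

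Log2 of each deposited intensity was used. Names of probe sets came from the platform annotation, and identifiers were checked against RefSeq (GRCh38.p14), which changed 0 symbols. Of the probe sets, 19158 had 1 symbol, 1388 several and 11775 none listed. The brightest probe set stood for each of 18404 genes. The comparison used lmFit and eBayes of limma 3.58.1 (R 4.3.3) with no trend, all genes, no filter and a threshold of 0.05, and single genes also with an exact permutation test over 20 labelings. No set test was run. Alternatives were filters on dim genes, other normalizations, other variance models, the replicate block, the mean of probe sets, each array left out, and the one-way analysis of variance named in the paper.

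The members, the lists and the alternatives were chosen with earlier results of these data known. Genes named are all members, members of the lists that passed with all genes or with the 25th percentile filter (otherwise the 2 with the smallest adjusted p), SALL4, and for HBEGF and EGFR the 3 genes of most similar profile. Other genes were named after their values were seen, namely EGR1, FOS, NRG1, NRG4, EPGN, LRIG3, PTPN1, CBLB and most markers.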

Additional observations from a re-analysis of the deposited data

How the results depend on the processing

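With all arrays and no filter, 218 genes were higher and 244 lower (1.18% and 1.33% of 18404). Of these, 0 and 1 were among the 9 measured ERBB receptors and ligands. Another 1 and 0 were among the 63 measured genes of the 5 lists around them. Under median centring, quantile normalization, cyclic loess and the mean of probe sets these counts stayed within 1.5 times, and cyclic loess gave 199 higher and 337 lower. The 25th percentile filter gave 809 and 757 of 13840 genes (5.85% and 5.47%). It called 2 of the 6 members tested lower, and 6 of the 57 list genes tested higher and 3 lower. The 50th percentile filter gave 827 and 742 of 9277 genes, 2 lower members, and 6 higher and 3 lower list genes. EGFR stayed in that test only through its Scr-sh values. With genes at the floor on all arrays left out, chosen after seeing the data, the counts were 633 and 610 of 14511 genes. Among the 58 list genes then tested, 6 were higher and 2 lower, and of 7 members 1 was lower. Fewer genes without spread were tested in these 3 fits. The fit with trend and robust gave 26 and 50 genes and the one-way analysis of variance 47 and 64, both with 0 members and 0 list genes. The cause was not tested.

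The replicate block gave 3 higher and 7 lower genes and called 0 members, and the adjusted p of HBEGF was 0.129 from limma. Its log2 fold change stayed at -0.96, with a standard error of 0.090 against 0.103 without the block. The block leaves fewer degrees of freedom for the error. The deviations of same-numbered arrays from their group means correlated with r of 0.144, 0.113 and -0.000690 for replicates 1, 2 and 3. Replicates 1 and 2 correlated best with their own number and replicate 3 did not. The labels give the numbers no meaning, so with 1 pair uncorrelated they were not taken to pair the samples.

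Without 1 array, 23 to 231 genes were higher and 29 to 173 lower. No member was then called (0 to 0), and 0 to 3 list genes were higher. SALL4 lost its call without any array other than Scr-sh replicate 2 (adjusted p = 0.0523 to 0.0741 from limma). The log2 fold change of ERBB3 ran from -0.000349 to 0.13, reversed without SALL4-sh replicate 2, its only array clearly above the floor. EGFR, ERBB2, ERBB4, HBEGF, EREG and EGF kept their direction in all alternatives that tested them (EREG was not tested with the 50th percentile filter).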

Other observations

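The genes with profiles most like that of HBEGF, ranked by the root mean square difference of centred log2 values over the 6 arrays among 12056 genes above the floor throughout, were MYADM (0.0774), ARAF (0.0826) and MAP7D2 (0.0849). ARAF encodes a RAF kinase that activates MEK. It averaged 58.6 in Scr-sh against 32.0 in SALL4-sh (log2 fold change -0.87, limma, adjusted p = 0.0666). MYADM, which encodes a membrane protein, differed by -0.90 on the log2 scale (limma, adjusted p = 0.0585), and MAP7D2, a microtubule-associated protein, by -0.91 (limma, adjusted p = 0.0432). For EGFR they were TADA2A (0.0894), CCN2 (0.102) and RANBP1 (0.125). CCN2 encodes a matricellular growth factor and averaged 423 against 214 (log2 fold change -0.94, limma, adjusted p = 0.190). The ranking uses the same 6 arrays as the comparison, so fold changes close to those of HBEGF and EGFR follow from the choice of these genes. Their adjusted p-values are therefore no separate result, and nothing was tested on the ranking.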
